A study of Mus musculus with 2 samples.

Results

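The mouse Schlafen gene cluster holds 7 protein-coding genes, Slfn5, Slfn9, Slfn8, Slfn2, Slfn1, Slfn4 and Slfn3 in order along chromosome 11. They were taken by name from the GENCODE M21 annotation of mm10 (GRCm38), in which all 7 were found among 21938 protein-coding genes. The genes run from chr11:82951349 to 83215154, and peaks and footprints were read over that stretch and 50000 bp either side, 363806 bp in all. Accessible chromatin was mapped by DNase-seq, which sequences the ends left where the enzyme DNase I cuts open DNA. The tissue was whole thymus of male B6CASTF1/J mice, an F1 hybrid of C57BL/6J and CAST/EiJ, at 2 months of age. There were 2 samples of 1 group, replicates 1 and 2, which the labels number as separate animals while giving both the same donor identifier. With 1 group, no test between conditions was possible, and every value below is a description of these samples.

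Schlafen genes code for a family of mammalian proteins, named for the growth arrest that forced expression of its founding members causes in mouse thymocytes. The short proteins Slfn1 and Slfn2 hold the Schlafen core alone, Slfn3 and Slfn4 are intermediate, and the long Slfn5, Slfn8 and Slfn9 carry a helicase-like domain as well. Type I interferon induces several members in mouse immune cells, and loss of Slfn2 function in the mouse elektra strain breaks the resting state of T cells and monocytes.

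The sequences of 8 accessible regions are shown first, since the results below turn on them. Each line gives 180 bases of the mm10 plus strand, 5′ to 3′, so the letters are those of the C57BL/6J reference and not of the CAST allele. Capitals mark bases inside a deposited footprint of both replicates, that is, a short stretch protected from DNase I within open chromatin. The first group covers the start sites of 4 members and the distal region with the highest score, which lies past Slfn2.
Slfn5 start, chr11:82951945-82952124: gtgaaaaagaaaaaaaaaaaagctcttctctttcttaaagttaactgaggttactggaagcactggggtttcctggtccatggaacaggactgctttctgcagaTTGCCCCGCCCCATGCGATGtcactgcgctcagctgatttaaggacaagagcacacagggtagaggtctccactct
Slfn8 start, chr11:83020790-83020969: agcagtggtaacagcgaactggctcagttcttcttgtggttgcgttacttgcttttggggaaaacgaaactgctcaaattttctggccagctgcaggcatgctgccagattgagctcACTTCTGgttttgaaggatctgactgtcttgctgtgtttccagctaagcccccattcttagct
Slfn2 start, chr11:83064960-83065139: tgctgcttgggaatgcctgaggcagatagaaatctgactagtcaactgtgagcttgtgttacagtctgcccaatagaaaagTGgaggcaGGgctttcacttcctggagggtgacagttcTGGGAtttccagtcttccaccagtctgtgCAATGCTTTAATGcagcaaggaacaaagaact
Slfn3 start, chr11:83191180-83191359: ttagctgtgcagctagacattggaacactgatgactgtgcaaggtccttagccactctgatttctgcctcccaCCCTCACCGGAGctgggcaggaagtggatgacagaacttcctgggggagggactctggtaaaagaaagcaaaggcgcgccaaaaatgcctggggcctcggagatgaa
Distal region past Slfn2, chr11:83078210-83078389: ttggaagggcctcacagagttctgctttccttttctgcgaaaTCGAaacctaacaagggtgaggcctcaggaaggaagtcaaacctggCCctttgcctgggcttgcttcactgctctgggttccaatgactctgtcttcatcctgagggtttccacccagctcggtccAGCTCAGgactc

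The second group covers 3 distal regions that each hold a footprint of at least 30 bp in both replicates. They lie within Unc45b, upstream of Slfn2 and just upstream of Slfn1, and their footprints share a run of letters described further on.
Distal region in Unc45b, chr11:82915080-82915259: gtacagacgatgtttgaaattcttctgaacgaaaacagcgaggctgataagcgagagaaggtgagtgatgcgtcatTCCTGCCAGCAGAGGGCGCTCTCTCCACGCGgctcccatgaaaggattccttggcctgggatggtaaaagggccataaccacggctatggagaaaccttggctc
Distal region upstream of Slfn2, chr11:83057970-83058149: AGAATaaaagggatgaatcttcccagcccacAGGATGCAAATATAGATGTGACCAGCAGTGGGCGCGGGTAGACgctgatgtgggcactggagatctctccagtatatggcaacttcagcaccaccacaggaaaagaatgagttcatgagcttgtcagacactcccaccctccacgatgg
Distal region upstream of Slfn1, chr11:83115280-83115459: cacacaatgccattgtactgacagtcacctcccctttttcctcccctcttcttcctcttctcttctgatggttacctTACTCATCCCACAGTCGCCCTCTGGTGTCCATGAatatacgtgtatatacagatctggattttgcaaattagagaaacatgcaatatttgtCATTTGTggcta

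Across the whole series, replicate 1 had 63832 peaks in the strict list and replicate 2 had 67929, and their peaks had median scores of 1.58 and 1.37. The score is the submitters' signal value per peak. Within a sample, every score was a whole number of steps of 1 size, to within 0.05 of a step, and the median peak stood at 213 steps in replicate 1 and 226 in replicate 2, while the number of sequenced reads is unknown here. Promoters of thymocyte markers had a strict peak in both replicates for 12 of 12 genes, against 2 of 6 B cell, 1 of 8 myeloid, 1 of 5 dendritic, 2 of 6 epithelial, 2 of 4 fibroblast, 2 of 4 endothelial and 2 of 4 erythroid markers. In a bulk tissue, fewer cells of a type and less accessibility per cell cannot be told apart.

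Open chromatin lay at the start of 5 of the 7 Schlafen genes in both replicates, namely Slfn5, Slfn3, Slfn2, Slfn8 and Slfn9. Slfn1 passed in replicate 1 alone and Slfn4 in neither. A promoter counted as open with a strict peak no more than 1000 bp from any transcription start site (TSS) of the annotation, and the highest score found there was taken as its value. By the same rule 59.0% of all protein-coding genes were open in both replicates, so the members' share is near the background. Replicate 1 gave 6 of 7 members, against 60.1% of all genes, and replicate 2 gave 5 of 7, against 60.6%.

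**Figure D1:**
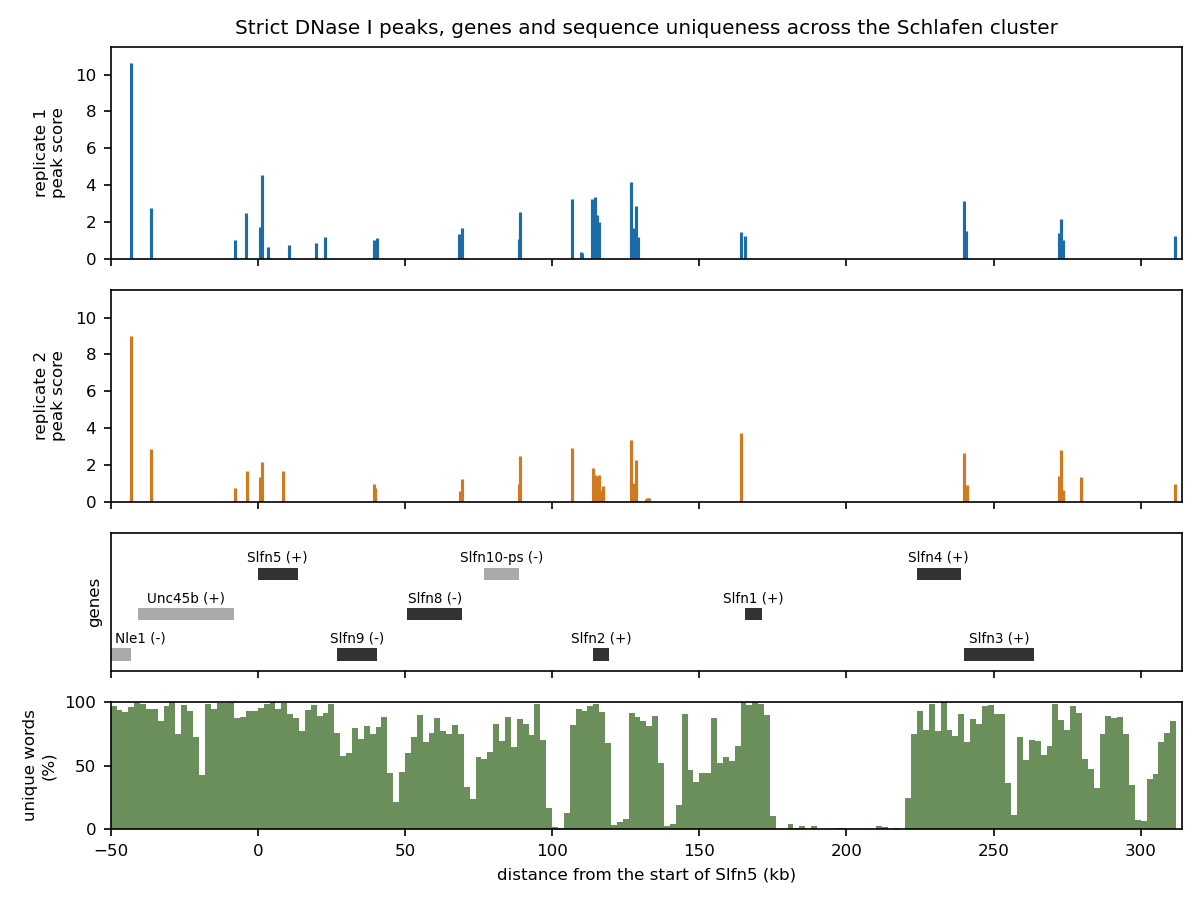
Height of each strict DNase I peak (submitters' score) in replicate 1 and replicate 2 against the distance from the start of Slfn5 in kb, with gene bodies (dark for the 7 members, grey for other genes, strand in brackets) and the share of 31-base words that occur once in the genome, in steps of 2 kb. Peaks gather around Slfn5 and Slfn2 and beyond the end of Slfn3, and the stretch between Slfn1 and Slfn4 holds neither peaks nor much unique sequence.

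The open promoters of the cluster were weak ones. The mean scores of the 5 open members ran from 1.05 to 3.34, while the open promoters of all genes had quartiles of 3.36, 6.83 and 10.7. Slfn5, the highest, stood above 24.8% of open promoters, Slfn3 above 22.1%, Slfn8 above 10.8% and Slfn9, the lowest, above 6.99%. All 7 starts were poor in CpG dinucleotides, with 6 to 20 CpGs within 500 bp either side of the 5′ end and a median of 16, against a median of 41 over all genes. Of the 7863 genes with at most 20 CpGs there, 18.7% were open in both replicates, with a median score of 3.28 among the open ones.

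**Figure D2:**
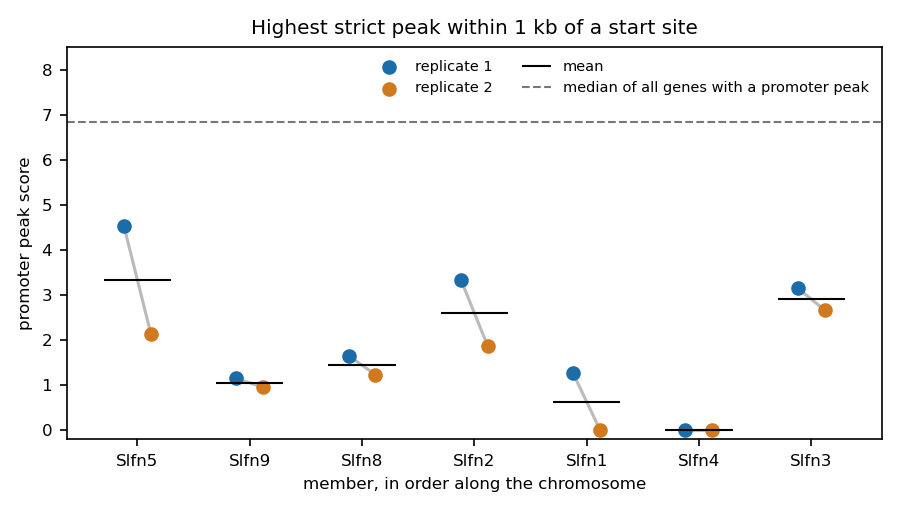
Highest strict peak score within 1 kb of a start site of each member, in order along the chromosome, for replicate 1 (blue) and replicate 2 (orange), with the mean as a bar and a score of 0 where no peak was listed. All values lie under the dashed line at 6.83, the median of the open promoters of all genes, and replicate 1 is higher at every member with a peak.

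Among the short members, Slfn2, which keeps T cells quiescent, was open at its TSS and in 4 further regions inside the gene. Its promoter score was 3.34 in replicate 1 and 1.86 in replicate 2, a mean of 2.60 ± 1.05 (SD, n = 2). Replicate 1 was the higher, and the 2 scores came from different peaks, since replicate 1 was highest within the gene, at an exon of the antisense gene Gm20234 (chr11:83065821-83066200), and replicate 2 over the TSS itself (chr11:83064881-83065340). At the TSS peak the scores were 3.22 and 1.86. The lowest false discovery rate (FDR) of a stretch of bases within 1000 bp of the TSS was 4.46e-25 in replicate 1 and 1.04e-13 in replicate 2, from the deposited per-base tracks. Bases at an FDR of 0.001 or less came to 1383 and 1219 there, the most of any member in both replicates.

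Slfn1, whose forced expression slows thymocyte growth in mice, is the next member along the chromosome and was near the detection limit. It had a strict peak at its TSS in replicate 1 (chr11:83116581-83117011, score 1.26) and none in replicate 2, where the looser list had a peak of 0.662. Its lowest FDR was 2.49e-05 and 0.000358, and 438 and 44 bases reached an FDR of 0.001. Both replicates thus had bases past that threshold, while the strict list held the promoter in replicate 1 alone. Counted by the looser list, 6 of 7 members were open in both replicates, against 62.7% of all genes, and counted by a base at an FDR of 0.001, 6 of 7 against 59.5%.

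The intermediate pair gave opposite readings at neighbouring genes. Slfn3, which is studied in rat gut epithelium for its part in enterocyte differentiation, scored 3.15 in replicate 1 and 2.66 in replicate 2, a mean of 2.91 ± 0.34 (SD, n = 2), in a peak over its TSS (chr11:83191201-83191400). Its replicates differed by a log2 ratio of 0.24, the smallest among the open members, and its lowest FDR was 1.87e-37 and 3.28e-33. A weaker region further into the gene (chr11:83191961-83192360, intronic) scored 1.53 and 0.906. Slfn4, a gene of mouse myeloid cells that macrophage activation induces, had no strict peak, no looser peak and no base with a listed FDR within 1000 bp of any of its 3 TSSs in either replicate. The track lists only stretches with an FDR under 0.05, so weaker cutting there was not detectable. Its start window was 97.4% unique in 31-base words, while that of Slfn3 was 81.5% unique. The coding sequences of Slfn3 and Slfn4 matched at 94.8% over 1649 bp, but the 1000 bp windows around their 5′ ends aligned over 19 bp alone. Of the 8 myeloid markers, Csf1r, Adgre1, Cd14, S100a8, S100a9 and Mpo had no promoter peak in either replicate, Itgam had 1.37 and 1.13, and Lyz2 had 0 and 0.596. The summed myeloid marker score was 1.37 in replicate 1 and 1.73 in replicate 2, against 95.02 and 61.8 for the thymocyte markers.

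The long members spanned the range. Slfn5, a nuclear protein that in human cells restrains interferon-stimulated transcription, scored 4.53 in replicate 1 and 2.14 in replicate 2, a mean of 3.34 ± 1.69 (SD, n = 2). That is the highest mean in the cluster and the widest gap between replicates among the 5 open members, with a log2 ratio of replicate 1 over replicate 2 of 1.08. The peak lies in an intron (chr11:82952621-82953000), where Slfn5 overlaps the antisense gene Slfn5os, and DNase signal does not tell strands apart. The region over a Slfn5 TSS itself (chr11:82951961-82952200) scored 1.72 and 1.34, so that a promoter window of 500 bp, in place of 1000 bp, gives Slfn5 a mean of 1.53. That TSS lies inside the gene. Around the 5′ end (chr11:82951349), neither replicate had a base at an FDR of 0.001 or less from 500 bp before to 500 bp past it. The order of Slfn5, Slfn3 and Slfn2 is within the spread between replicates.

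Slfn8, whose forced expression curbs T cell proliferation in mice, scored 1.65 in replicate 1 and 1.23 in replicate 2, a mean of 1.44 ± 0.30 (SD, n = 2), over its TSS (chr11:83020761-83021020 in replicate 1). Its close paralog Slfn9 scored 1.15 and 0.948, a mean of 1.05 ± 0.14 (SD, n = 2), from different peaks (chr11:82991501-82992120 in replicate 1 and chr11:82990704-82990880 in replicate 2). Both replicates of Slfn8 lay above both of Slfn9 and below both of Slfn2, Slfn3 and Slfn5. In the strict list the peak over the 5′ end of Slfn9 was present in replicate 1 alone, and the looser list of replicate 2 had it at 0.632, while the region that both replicates shared takes in a further annotated TSS inside the gene. That shared region was 49.3% unique, the lowest of the 27, whereas the Slfn8 start region and the replicate 1 peak over the 5′ end of Slfn9 were 100% unique. Slfn8 and Slfn9 matched at 92.7% over 2730 bp of coding sequence and at 86.3% over 680 bp around their starts. Copies this alike can share reads where words are not unique, so the shared Slfn9 region is uncertain.

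The per-base tracks showed a shape that Slfn8, Slfn9 and Slfn3 had in common, which was picked out after the values were seen. In Slfn8 both replicates had low-FDR bases from as far as 400 bp before to 400 bp past the 5′ end, and again from 600 to 1200 bp into the gene. In Slfn3 replicate 2 had a like pair of stretches, while in replicate 1 they ran together from 400 bp before to 1100 bp past the 5′ end. In Slfn9 replicate 1 had both stretches, and replicate 2 had the inner one alone, from 600 to 1200 bp. Slfn2 was alike in part, with 1 run of low-FDR bases over the start and into the gene in replicate 1. In its replicate 2 they thinned to 31 in the 100 bp from 300 bp and went on to 1200 bp. At Slfn8 the inner stretch was called in each replicate as a strict peak that just failed to meet the other, at chr11:83019681-83019860 with a score of 1.36 in replicate 1 and at chr11:83019861-83020052 with 0.571 in replicate 2. It is therefore not among the shared regions. These peaks were 40% and 46.9% unique, and the inner region of Slfn9 was 49.3% unique, while that of Slfn3 was 95.9% unique, and the part of repeated sequence in the common shape was not tested.

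**Figure D3:**
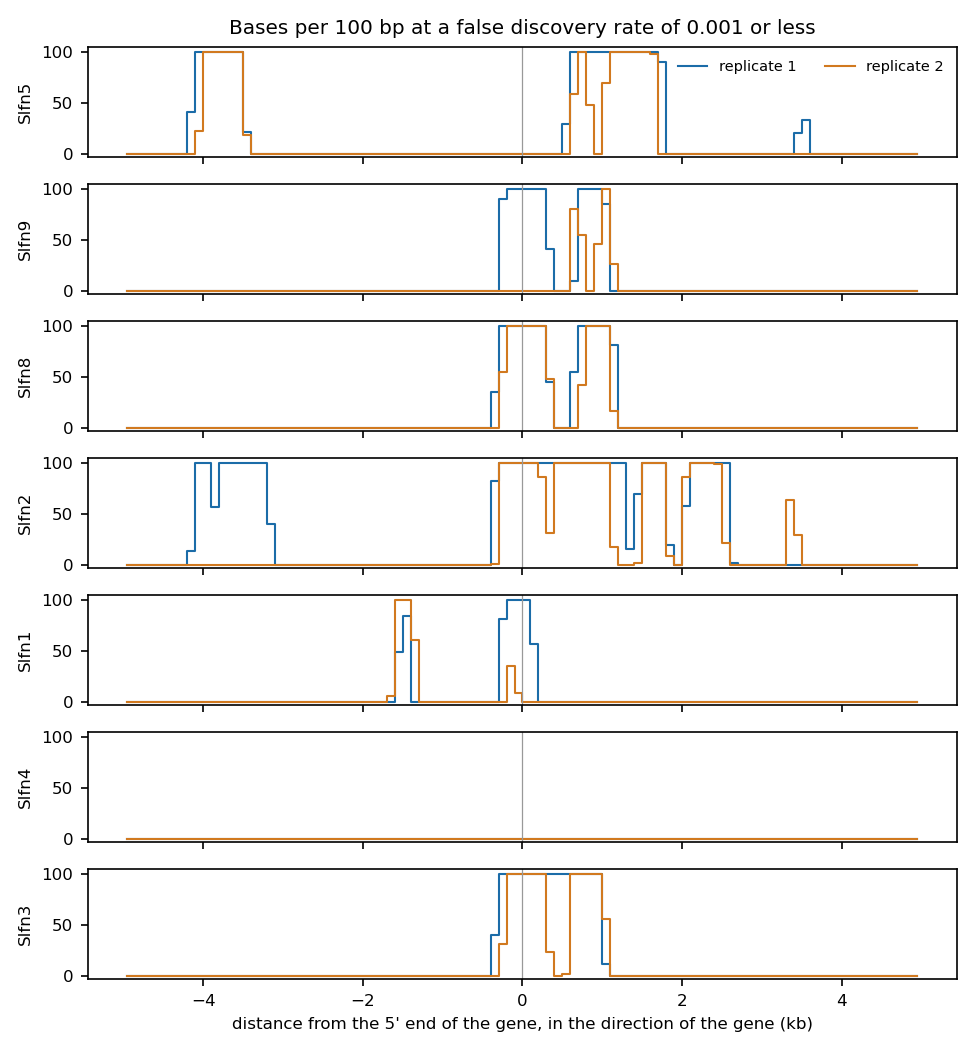
Number of bases in each 100 bp with a deposited FDR of 0.001 or less, from 5 kb before to 5 kb past the 5′ end of each member, in the direction of the gene, for replicate 1 (blue) and replicate 2 (orange). Slfn2 has the broadest stretch, Slfn8, Slfn9 and Slfn3 have stretches over the start, in replicate 1 alone at Slfn9, and further into the gene, and Slfn4 has none.

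Over the whole span 37 strict peaks were listed for replicate 1 and 38 for replicate 2, and they overlapped in 27 shared regions. Tiles of the same length over the genome held a median of 3 shared regions, with quartiles of 0 and 11. Of the 27, 9 lay at member promoters, 7 near the TSS of other genes alone, and 11 were distal, over 1000 bp from any TSS. Tiles held a median of 1 distal region, with quartiles of 0 and 6. Each replicate had 10 further peaks that the other lacked. Over the genome, 62230 joined strict peaks of replicate 1 and 66839 of replicate 2 gave 51709 shared regions. The 10 of replicate 1 had a median score of 1.01, and 5 had a counterpart in replicate 2's looser list. The 10 of replicate 2 had a median of 0.614, and 4 had a counterpart in replicate 1's looser list. Some of these were faint, as the pair of 0.341 and 0.326 centred at -4023 and -3562 bp from the Slfn2 TSS in replicate 1, and the 4 peaks of 0.158 to 0.207 from 18126 to 19248 bp past its TSS in replicate 2.

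Slfn2 held the densest block of open chromatin in the cluster. Within 10000 bp of the gene, 9 shared regions lay in 22200 bp (chr11:83057981-83080180) and covered 3374 bp, 5 of them on the gene itself. From the TSS into the gene, these 5 scored 3.22 and 1.86, 2.28 and 0.857, 3.34 and 1.46, 2.37 and 1.38, and 2.01 and 1.45 in replicates 1 and 2. All 5 were higher in replicate 1, by 0.47 to 1.41 on the log2 scale, while the median log2 ratio over all shared regions of the genome was 0.22 (SD 0.46). The distal region with the highest mean score in the span lies past the gene, centred 13188 bp from its TSS (chr11:83078201-83078400, intergenic), at 4.18 in replicate 1 and 3.35 in replicate 2. Its neighbour at chr11:83079601-83080180 scored 2.87 and 2.28, and a region upstream, centred at -7052 bp (chr11:83057981-83058140) scored 3.23 and 2.93. The log2 ratios of replicate 1 over replicate 2 were 0.32, 0.33 and 0.14 at these distal regions. A weaker distal region between the outer pair (chr11:83078481-83078894) scored 1.67 and 1.05, with a log2 ratio of 0.67, which lies within the range of the regions on the gene. Gm20234 overlaps Slfn2 in antisense, and it had no strict peak within 1000 bp of its own TSS, so the gene to which the intragenic regions belong cannot be told apart from the signal.

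**Figure D4:**
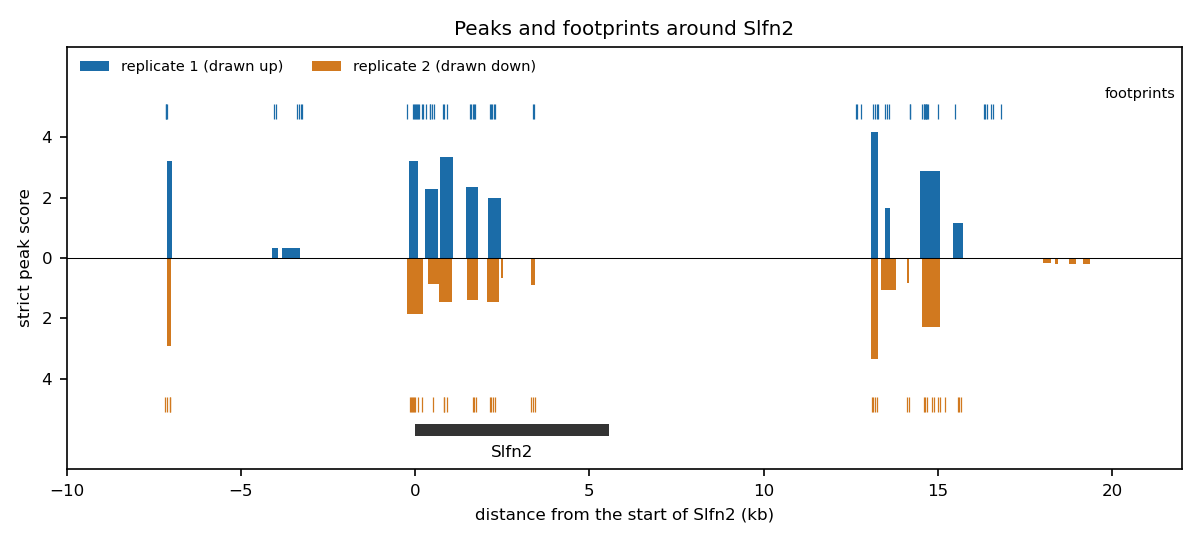
Strict peaks around Slfn2, with bar width the peak's extent and bar height its score, for replicate 1 (up, blue) and replicate 2 (down, orange), against the distance from the start of Slfn2 in kb. Ticks at the outer edges are deposited footprints, and the dark bar is the gene. The regions on the gene are taller in replicate 1, whereas the tall outer regions on either side of it are closer in height.

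Distal regions were uneven along the cluster. Within 50000 bp of a TSS there were 6 for Slfn2, 6 for Slfn1, 3 for Slfn5, 3 for Slfn8, 2 for Slfn9 and 0 for both Slfn4 and Slfn3, against a median of 2 over all genes with quartiles of 0 and 4. Neighbouring members share most of these regions. The stretch between Slfn1 and Slfn4, which is only 9.17% unique, takes up all of the 50000 bp before the start of Slfn4. It also takes up most of the 50000 bp before the start of Slfn3. Whether repeated sequence lowered the counts of these members was not tested, so their counts of 0 do not show a lack of distal open chromatin. The distal regions of the span had medians of 2.37 for replicate 1 and 1.68 for replicate 2, against 1.46 and 1.42 for all distal regions. For the 9 regions at member promoters the medians were 2.28 and 1.34, against 3.64 and 2.81 for all regions near a TSS. The distal regions therefore stood above the genome's median and the promoters below it, in both replicates.

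Replicate 1 was higher in 23 of the 27 regions, and 67.3% of regions genome-wide were. The region furthest from the median ratio lies upstream of Slfn1, centred at -1479 bp from its TSS (chr11:83115281-83115460), with 1.47 in replicate 1 and 3.72 in replicate 2, a log2 ratio of -1.34. It went the opposite way from Slfn1's own TSS peak, which was the stronger in replicate 1. The other region more than 2-fold from the median ratio was the one at chr11:83065381-83065800 in Slfn2, with a log2 ratio of 1.41. Together they make 2 of 27, against 3.45% of all regions.

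**Figure D5:**
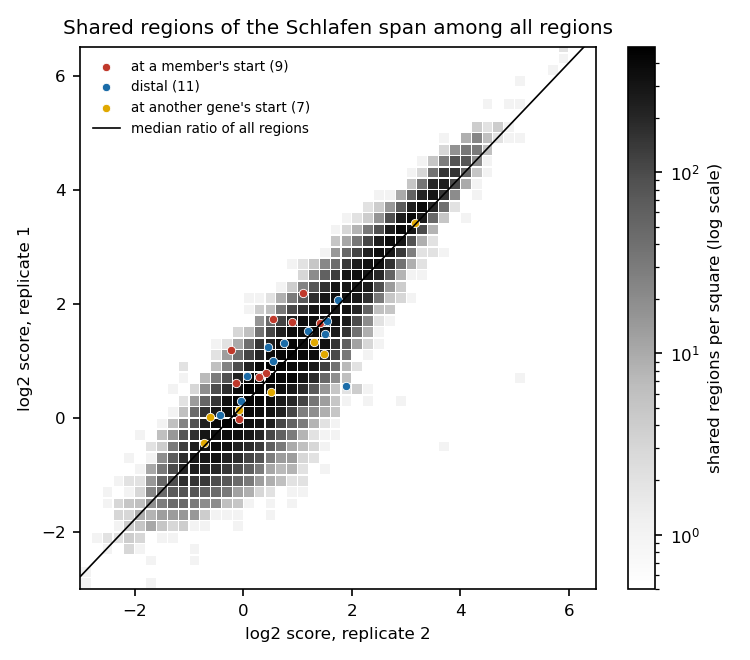
Log2 score in replicate 1 against log2 score in replicate 2 for the 27 shared regions of the Schlafen span, split into 9 at a member's start (red), 11 distal (blue) and 7 at another gene's start (yellow), over the density of all 51709 shared regions (grey squares). The line marks the median log2 ratio of 0.22, and the blue point at the lower right is the region upstream of Slfn1.

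The stretch between Slfn1 and Slfn4 (chr11:83122671-83175185, 52515 bp) held no strict peak, looser peak, footprint or listed FDR base in either replicate. Only 9.17% of its 31-base words occur once in the genome, and its words had a median of 4 copies, and how reads of repeated sequence were placed is not stated. It lies inside the longest stretch without a strict peak, 74189 bp from the end of the Slfn1 peak to the start of the Slfn3 peak, which also takes in Slfn4. Over the whole span 63.3% of words were unique. The 27 shared regions had a median of 100% unique words and 3 were under 90%, against 5.29% of the 4238 shared regions of chromosome 11.

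Footprints numbered 173 in replicate 1 and 137 in replicate 2 over the span, 98 and 101 of them in shared regions, with a median width of 8 and 9 bp and a range of 7 to 46 bp. Of these, 60 of the 173 and 59 of the 137 overlapped a footprint of the other replicate. At least 1 base lay in a footprint of both replicates in 20 of the 27 regions and in 10 of the 11 distal ones. No genome-wide share is at hand for these overlap counts, so they describe the span alone. Footprints of 30 bp or more in both replicates occurred in 4 regions, the promoter of Nle1 and the 3 distal regions in Unc45b, upstream of Slfn2 and upstream of Slfn1 whose sequences are given above. Genome-wide, 24.8% of shared regions had such a footprint.

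Motif letters were searched on both strands in the 200 bp around the centre of each shared region, as exact matches. ISRE letters GAAANNGAA, the element that interferon-activated factors bind, occurred in 4 of 27 regions (14.8%, 95% Wilson interval 5.92 to 32.5%), against 4.89% of all shared regions. These were the Slfn5 intron peak, the Slfn8 start, the distal region past Slfn2 and a region near the start of AI662270, beyond Slfn3. In the region past Slfn2 the letters occurred at 2 places, 1 of which lay partly in a footprint of both replicates, and overlapped the STAT letters TTCNNNGAA. At the Slfn8 start the ISRE letters lay outside the shared footprint, though a footprint of each replicate touched them on different bases. No start region of Slfn2, Slfn3 or Slfn9 held these letters within its 200 bp. The Slfn5 start line printed above holds them, but outside the 200 bp window of that region. By single matches, ISRE letters numbered 5 in the 200 bp windows, 8 in 300 bp windows and 7 in whole regions.

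ETS letters CNGGAAG occurred in 11 of 27 regions (40.7%, Wilson 24.5 to 59.3%), against 29.3% of all regions, among them the starts of Slfn5, Slfn2 and Slfn3. RUNX letters TGNGGTT occurred in 6 (22.2%, Wilson 10.6 to 40.8%, against 14.2%), among them the starts of Slfn5 and Slfn8. E-box letters CAGNTG occurred in 9 (33.3%, Wilson 18.6 to 52.2%, against 49.7%). SP/KLF letters GGGCGG, a motif of CpG-rich promoters, occurred in 2 (7.41%, Wilson 2.06 to 23.4%, against 26.8%). The Slfn5 start was 1 of the 2, and its SP/KLF letters lay in a footprint of both replicates, as printed in its line above. Genome-wide, E-box letters occurred in 58.0% of distal and 38.7% of near-TSS regions, and SP/KLF letters in 10.9% and 47.6%. At the Slfn2 start the NF-kB letters GGGANTTCC touched a shared footprint, the single match of that motif in the 200 bp windows of the 27 regions. By single matches, E-box letters numbered 11 in these 27 windows, 25 in 300 bp windows and 30 in whole regions. They numbered 20 in the 38 windows of all strict peaks of replicate 2 and 23 in the 37 of replicate 1. SP/KLF letters numbered 2, against 5 and 3, and NF-kB letters 1, against 2 and 1. A match is a description of letters and does not show that a factor was bound.

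The CTCF letters CNAGGNGGC occurred in none of the 27 regions, which allows up to 12.5% by the Wilson interval, against 12.3% of all regions. They occurred once in the windows of all strict peaks of replicate 2 and at 2 places in those of replicate 1. A second form, CAGNGGGCG, was added after the sequences of the wide footprints had been read. It occurred in 3 of the 11 distal regions, those in Unc45b, upstream of Slfn2 and upstream of Slfn1, against 5.12% of all distal regions and 8.37% of the 7213 distal regions with a footprint of at least 30 bp in both replicates. All 9 of its 9 bases lay in footprints of both replicates at each of the 3 places. Since the form was read off these regions, its share there is no independent evidence.

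Other genes of the span frame the cluster. The ribosome assembly gene Nle1 had the highest promoter of the span, at 10.6 in replicate 1 and 9.01 in replicate 2, while Unc45b, a chaperone of muscle myosin, had none. The pseudogene Slfn10-ps, between Slfn8 and Slfn2, was open at 2.53 and 2.47, above Slfn8 and Slfn9 in both replicates. The overlapping AI662270 and Gm11427 beyond Slfn3 shared a peak of 2.17 and 2.80. Slfn5os had a strict peak within 1000 bp of a TSS in replicate 2 alone, at 1.69 and 741 bp from the nearest TSS, and the looser list of replicate 1 held it at 0.756. Slfn14, just past the 50000 bp margin, and the Schlafen-like gene Slfnl1 on chromosome 4 had no promoter peak in either replicate.

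Listed genes from pathways in which Schlafen genes are known to act were open at most promoters. The lists were chosen with earlier results of these data known, so the counts are a description alone. Of 16 genes that hold T cells in quiescence, 16 were open in both replicates, with a median score of 9.71, against 59.0% of all protein-coding genes and a median of 6.83 over the open ones. The highest were Klf10 at 20.5 ± 4.12, the antiproliferative Btg1 at 19.5 ± 8.54, the transcription factor Ets1 at 16.8 ± 2.40 and the ubiquitin ligase Cblb at 13.5 ± 3.41 (SD, n = 2 each). Of 20 genes of the interferon response, 17 were open in both. The median over all 20 was 2.97, against 1.96 over all protein-coding genes, closed ones included in both. The highest were Irf1 at 11.9 ± 1.12, Irf9 at 11.6 ± 0.77 and Stat2 at 9.38 ± 1.14, followed by the virus-tethering protein Bst2 at 7.53 ± 0.85 (SD, n = 2 each). Ifit3 and Oas1a had no promoter peak, and Isg15 had one in replicate 2 alone. The 7 Schlafen genes had a median of 1.44, against 1.96 over all protein-coding genes, closed ones included in both.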

How the data were processed

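DNase-seq of 2 whole-thymus samples from male B6CASTF1/J mice was read from interval files on mm10, per the labels. The deposited peak lists give the authors' signal value per peak, used here as the score. The deposited FDR tracks give a q-value per stretch of bases and list stretches under 0.05. The deposited footprints, whose value column is 0.01 throughout, served for their positions alone. Aligner, peak caller, footprint tool and score scale were not given in the sources used here, and reads and alleles were not analysed here. Peaks of this hybrid were placed on the C57BL/6J reference.

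The strict list of each replicate was used, entries that overlapped were joined, and regions were shared from 1 bp of overlap. Promoters were read within 1000 bp of GENCODE M21 TSSs. Motifs were sought in 200 bp windows, words of 31 bases were counted over the genome, and shares carry 95% Wilson intervals, which cover counting error only. RefSeq start sequences of GRCm38 matched 7 of 7 members and were not printed. Named genes were the 7 members, the genes of the span, and of each list the 4 highest and the first 2 in alphabetical order without a peak. The members and lists were chosen with earlier results of these data known, and no p-value was computed. Steps were tested on simulated data. Alternatives changed the peak list, window, overlap, span and replicates. Tools were bedtools 2.31.1, biopython 1.88, matplotlib 3.10.9, pysam 0.24.0, scipy 1.17.1, pandas 2.3.3, numpy 2.4.6 and Python 3.11.15.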

Additional observations from a re-analysis of the deposited data

How the results depend on the processing

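Of 121 values recomputed with both replicates, 101 stayed within the spread between replicates or, for counts, within 1.5 times. The 101 include counts of other motifs that could not move when the CTCF letters alone were changed, so that number overstates stability. The number of open members was 5 to 6 under the alternatives run, from 6 with the looser list or a 2500 bp window to 5 with the 50000 highest peaks, a 500 bp window or the 5′ end alone. Leaving out replicate 1 gave 5 and leaving out replicate 2 gave 6. With both replicates, member values moved in 3 of 35 cases: Slfn5 to 1.53 with a 500 bp window or the 5′ end alone, and Slfn1 to 2.60 with a 2500 bp window, which takes in the upstream region. Leaving out a replicate leaves the other's value, which with n = 2 always lies within 1 SD of the mean and says nothing of stability: Slfn1 was then 0 to 1.26, against a mean of 0.63, and Slfn5 2.14 to 4.53. The median over members became 2.60 with that window, against 1.44. Distal regions numbered 16 to 19 with either replicate left out, against 11 shared ones. Footprints averaged 155 over the span and 96.5 when only those wholly in a shared region were counted. Motif matches over all motifs numbered 44, but 73 in 300 bp windows, 84 in whole regions and 67 to 68 with either replicate left out. More sequence was searched in each of these settings, and its part in the rise was not tested. Without replicate 1, TCF/LEF matches numbered 2 and FOXO matches 1, and without replicate 2, TCF/LEF matches numbered 4 and GATA matches 2, against 1, 0 and 1 for TCF/LEF, FOXO and GATA. No paired analysis was possible because the series has 1 group. The unknown depth and the low uniqueness between Slfn1 and Slfn4 limit what can be said of weak or repeated sequence.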
